A study of Mus musculus with 3 samples.

Results

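Expression of 5 enzymes of itaconate and arginine metabolism, Acod1, Arg1, Arg2, Nos2 and Ass1, was followed through mouse spleen cells. They are 5 of the 33696 genes in the count tables and were chosen by name, with earlier results of the same cells known, so the values below describe these libraries and test nothing about the choice. Droplet-based 5′ single-cell RNA sequencing had been run on spleens of 3 groups with 1 library each, named MASH-Phe-free, MASH and Chow. MASH is the usual abbreviation of metabolic dysfunction-associated steatohepatitis, and Phe stands for phenylalanine in the study's title. The strain, age and number of the mice behind each library, the content of the diets, and whether these mice carried tumours are not given in the sources used here. With 1 library per group, a difference between groups cannot be told apart from one between mice or preparations. No p-value was computed for that reason, and every interval below is a 95% exact Poisson or exact binomial (Clopper-Pearson) interval that covers counting error only.

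Acod1 (ENSMUSG00000022126) makes itaconate from cis-aconitate of the tricarboxylic acid cycle in activated myeloid cells, and itaconate inhibits succinate dehydrogenase. Arg1 (ENSMUSG00000019987), in the cytosol, and Arg2 (ENSMUSG00000021125), in mitochondria, are arginases that split arginine into urea and ornithine, the precursor of polyamines and proline. Nos2 (ENSMUSG00000020826) is the inducible synthase that turns the same arginine into nitric oxide and citrulline. Ass1 (ENSMUSG00000076441) joins citrulline to aspartate, a step that rebuilds arginine. In mouse macrophages, Nos2 and Arg1 are the textbook markers of classical and of alternative activation.

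Of the 5 genes, 2 matched RefSeq's promoter windows (build GRCm38.p6), Acod1 and Ass1, and Arg1, Arg2 and Nos2 did not. The windows of these 2 genes are shown because they differ in make-up. A link between that make-up and the cells in which the genes were found was not tested. Each line gives the 250 bases before the start, 5′ to 3′ on the plus strand, Acod1 at chr14:103046762-103047011 and Ass1 at chr2:31470020-31470269. Capitals mark matches to motif letters that were chosen with these sequences in view.
Acod1: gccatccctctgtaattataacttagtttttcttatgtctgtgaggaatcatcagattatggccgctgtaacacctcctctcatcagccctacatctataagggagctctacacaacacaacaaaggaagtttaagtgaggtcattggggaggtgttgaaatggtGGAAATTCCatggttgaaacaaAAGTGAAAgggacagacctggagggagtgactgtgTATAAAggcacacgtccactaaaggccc
Ass1: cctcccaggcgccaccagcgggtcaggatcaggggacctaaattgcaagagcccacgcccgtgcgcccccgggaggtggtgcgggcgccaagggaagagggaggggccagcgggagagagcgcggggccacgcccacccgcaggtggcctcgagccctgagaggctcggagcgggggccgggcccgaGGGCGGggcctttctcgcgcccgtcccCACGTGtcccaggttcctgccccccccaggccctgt
In the Acod1 window the capitals are GGAAATTCC, a kappaB-type motif, 85 bases before the start, AANNGAAA, an interferon-response-type motif, at 63 bases, and TATAAA, the classical core promoter box, at 28 bases. Searched on both strands of 32536 distinct windows of the same length, GGAAATTCC occurred in 0.289%, AANNGAAA in 21.3% and TATAAA in 12.3%. The Ass1 window holds GGGCGG, the Sp1-type box, 63 bases before the start and CACGTG, an E-box, at 36 bases, which occurred in 33.0% and 6.04% of the windows. GC content was 44.4% with 2 CpG in the Acod1 window and 75.6% with 23 CpG in the Ass1 window, beside medians of 52.4% and 6 CpG over all windows. A match of letters is a description of the window and not evidence of a bound factor.

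The libraries held 160115282 unique molecular identifiers (UMIs, each a count of 1 captured RNA molecule) in MASH-Phe-free, 152501471 in MASH and 138787602 in Chow, and median UMIs per barcode were 6263, 5873 and 7169 in the same order. After filters and removal of called doublets, 15539 MASH-Phe-free, 17301 MASH and 15575 Chow cells remained, and 72 to 102 barcode sequences were shared by a pair of libraries. Cells were clustered over all libraries without the 5 genes among the variable genes, and clusters were named "-like" by marker lists, which left 3084 of 48415 cells (6.37%) unnamed. The spleen labels went with the classes found: B-like cells made up 24.6%, 27.8% and 34.5% of MASH-Phe-free, MASH and Chow cells, T-like cells 13.8%, 15.7% and 19.8%, and macrophage-like cells 19.2%, 18.3% and 15.4%. The median mature neutrophil-like cell held 8 of its 8 markers and the median macrophage-like cell 8 of 12, whereas the median cDC2-like cell (a class of conventional dendritic cells) held 1 of 7. Levels are given as CPM, the UMIs of a gene per 1e6 UMIs of all genes in the cells of a class, and are compared between libraries or classes for 1 gene at a time.

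The 5 genes were spread over cells in different ways. The 10 cells with most Arg1 UMIs held 91.4% of that gene's UMIs in MASH-Phe-free, 97.7% in MASH and 97.2% in Chow. For Acod1 the 10 highest cells held 18.3%, 17.2% and 21.3% of its UMIs in MASH-Phe-free, MASH and Chow. The same share was 3.99%, 5.25% and 6.81% for Arg2, and 5.43%, 5.99% and 4.36% for Ass1. Arg1 was thus a gene of a few barcodes in every library, Acod1 lay between, and the 10 highest cells held under 7% of Arg2 and of Ass1. For Nos2, with 4, 12 and 6 UMIs in MASH-Phe-free, MASH and Chow, 10 cells held all there was.

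**Figure D1:**
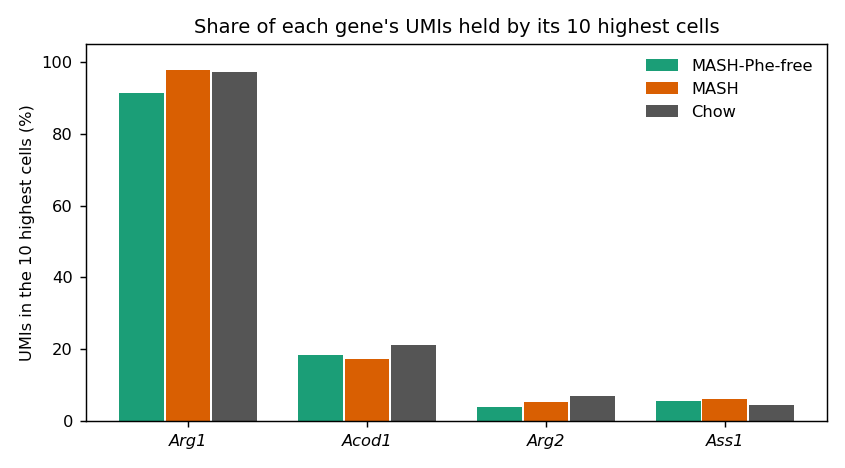
Bars give the percent of a gene's UMIs in a library that lay in the 10 cells with most UMIs of that gene, for MASH-Phe-free, MASH and Chow cells. Arg1 stands above 91% in each library, and the other genes drawn stay at or below 21.3%; Nos2 is not drawn.

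The highest cells were of different kinds. All 10 of the highest Acod1 cells in MASH were mature neutrophil-like, as were 8 in MASH-Phe-free and 7 in Chow, and the others were basophil and mast cell-like (1 in MASH-Phe-free, 3 in Chow) or macrophage-like (1 in MASH-Phe-free). The highest Arg1 cells were macrophage-like in 8 cases in MASH-Phe-free, where classical monocyte-like cells made the other 2, and in 10 cases in Chow. In MASH only 3 of the 10 were macrophage-like, and the other 7 held 1 Arg1 UMI each. Mature neutrophil-like cells made all 10 of the highest Arg2 cells in MASH-Phe-free and in MASH, and 9 in Chow. Ass1 had a mixed list: 4 immature neutrophil-like, 4 classical monocyte-like and 2 erythroid-like cells in MASH-Phe-free, against 5 T-like, 2 B-like, 1 immature neutrophil-like and 2 unnamed cells in MASH.

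**Figure D2:**
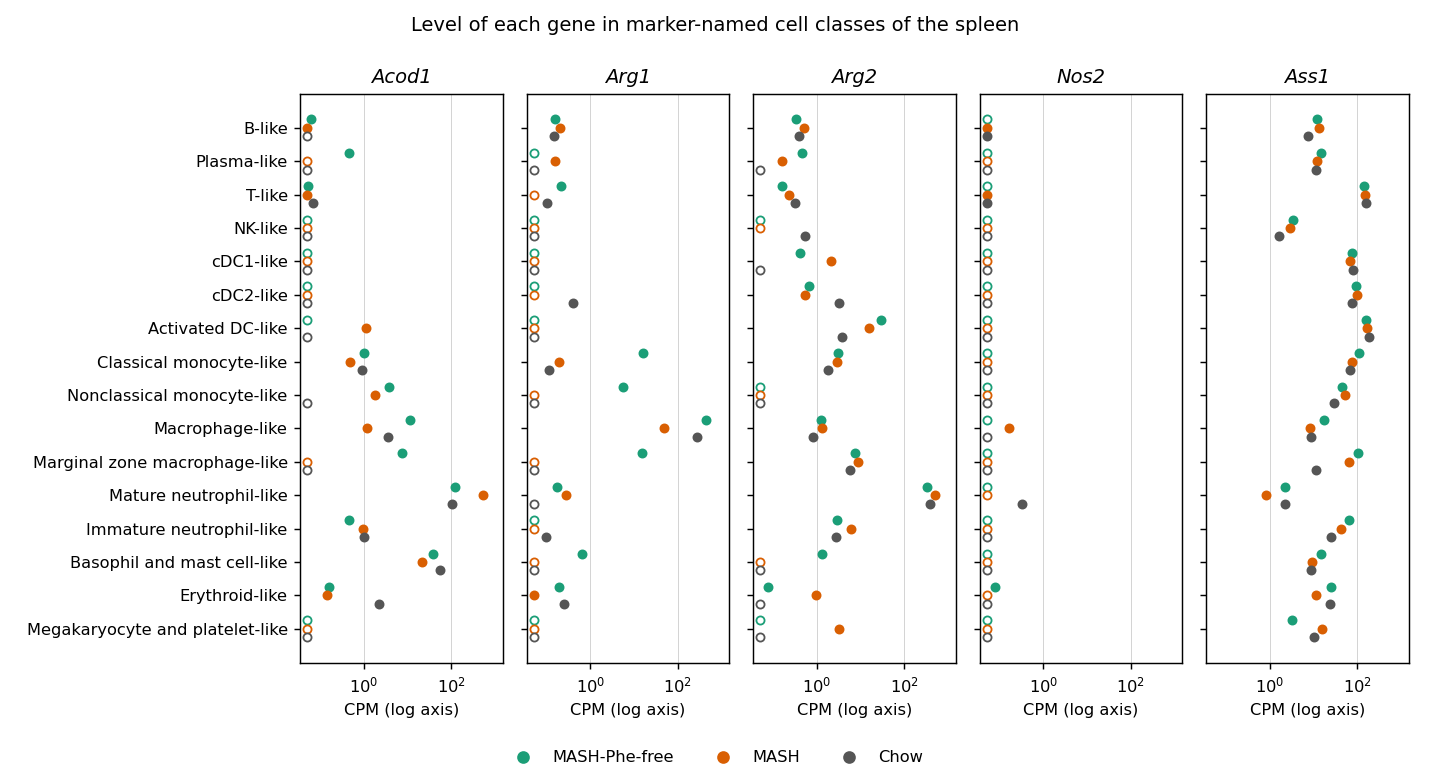
Points give the CPM of each gene (log axis) in the 16 classes with at least 50 cells in every library, for MASH-Phe-free, MASH and Chow. Open points mark 0 UMIs, and all values under 0.05 CPM are drawn at 0.05. Acod1 and Arg2 peak in mature neutrophil-like cells, Arg1 in macrophage-like cells, and Ass1 has points in all 16 classes.

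Acod1 RNA sat in mature neutrophil-like cells and was highest there in MASH. These cells held 737 of 914 Acod1 UMIs (80.6%) in MASH-Phe-free, 1980 of 2042 (97.0%) in MASH and 327 of 447 (73.2%) in Chow. Over 1196, 820 and 672 cells of similar depth (median UMIs 4046, 4197 and 4070), the level was 125 CPM in MASH-Phe-free, 536 CPM in MASH and 103 CPM in Chow. The MASH library therefore stood apart from the other libraries, which lay close together. Acod1 was 5.19-fold higher in MASH than in Chow (interval 4.62 to 5.85). MASH-Phe-free stood at 0.234 of the MASH level (0.214 to 0.254) and at 1.21 of the Chow level (1.06 to 1.39). With mature neutrophils set by per-cell marker gates in place of clusters, MASH over Chow was 11.7 and MASH-Phe-free over MASH 0.117. Of the members with at least 20 UMIs in this class in MASH and Chow together, Acod1 was at least 2-fold higher and Arg2 was not, where 2.68% of 8365 genes were at least 2-fold higher in MASH than in Chow and 6.81% at least 2-fold lower. Between MASH-Phe-free and MASH, Acod1 was at least 2-fold lower and Arg2 was not, where 3.43% of 9113 genes were lower by that much and 8.55% higher. Neither they nor Ass1 passed 2-fold between MASH-Phe-free and Chow, where 3.59% of 9101 genes were that much higher and 3.85% that much lower. Since the genes were chosen with these levels known, nothing is read from those shares.

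More cells carried Acod1 in MASH, and those that did carried more of it. At least 1 Acod1 UMI was found in 20.99% of mature neutrophil-like cells in MASH-Phe-free, 47.0% in MASH and 20.1% in Chow. With each cell thinned to 1000 UMIs, which left out 13, 6 and 8 shallower cells, the shares were 9.64%, 25.8% and 9.49%. Cells with 10 or more Acod1 UMIs numbered 5 in MASH-Phe-free, 52 in MASH and 3 in Chow, and these held 7.87%, 44.6% and 9.17% of the class's Acod1. The highest mature neutrophil-like cell had 13 UMIs in MASH-Phe-free, 63 in MASH and 10 in Chow. B-like cells, which should lack the gene, carried it in 0.0522% of cells in MASH-Phe-free, 0.0208% in MASH and none of 5375 in Chow, at median depths of 7882, 8518 and 8241 UMIs.

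**Figure D3:**
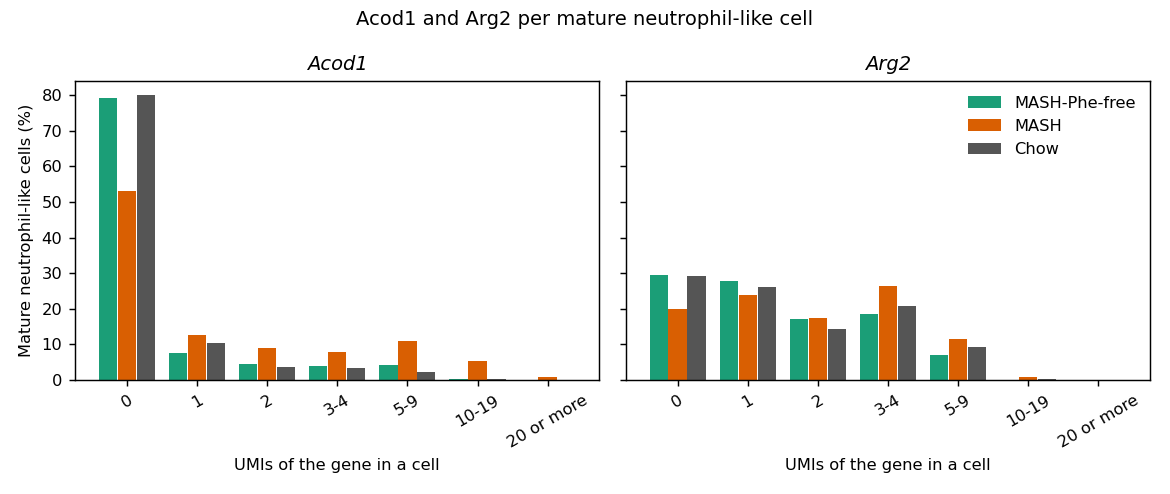
Bars give the percent of mature neutrophil-like cells with each number of Acod1 UMIs (left) and Arg2 UMIs (right) per cell, out of 1196 MASH-Phe-free, 820 MASH and 672 Chow cells. For Acod1 the MASH bar at 0 is lower and every MASH bar above 0 is higher than in the other libraries; the Arg2 bars lie closer together.

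The class did not have the same make-up in every library. Its largest cluster, led by Il1b, Csf3r and Cxcr2, held 83.9% of its cells in MASH-Phe-free, 96.0% in MASH and 89.3% in Chow. In that cluster alone Acod1 stood at 172, 585 and 131 CPM in MASH-Phe-free, MASH and Chow, so that MASH over Chow was 4.47 and MASH-Phe-free over MASH 0.294. The remaining clusters of the class gave 34.1 CPM in MASH-Phe-free, 102 CPM in MASH and 18.0 CPM in Chow. The order of the libraries was thus the same in the largest cluster and outside it. Summed over the 10 immature neutrophil markers, the class had 17874 CPM in MASH-Phe-free, 5732 CPM in MASH and 17347 CPM in Chow, and summed over 11 erythroid markers 1659, 2781 and 209 CPM. The part of these differences in the Acod1 values was not tested.

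Cells that carried Acod1 also carried more of most, not all, of the classical activation genes measured. Each library had 9 such genes with at least 20 UMIs, of which 8 were higher in carriers with an interval clear of 1 in MASH-Phe-free, 8 in MASH and 6 in Chow. The 9 were not the same: Cxcl10 was among them in MASH only, and Ccl5 in MASH-Phe-free and Chow only. Cells under 2000 UMIs were left out, 61 in MASH-Phe-free, 52 in MASH and 31 in Chow. With cells marked as carriers after thinning to 2000 UMIs, MASH-Phe-free had 161 carriers and 974 others, MASH 282 and 486, and Chow 89 and 552, and median depths of carriers and others differed by under 100 UMIs in each library. Cxcl10, an interferon-induced chemokine, reached 8.53 CPM in carriers and 0.20 CPM in other cells of MASH-Phe-free (6 UMIs against 1). In MASH it was at 86.0 CPM in carriers and 1.29 CPM in other cells (111 UMIs against 3), and in Chow at 36.3 and 1.10 CPM (14 UMIs against 3). Most Cxcl10 UMIs of the cells compared thus lay in Acod1 carriers in each library, on fewer than 20 UMIs in MASH-Phe-free and in Chow. Cxcl2, a chemokine that draws neutrophils, stood at 171 CPM in carriers and 104 CPM in other cells of MASH-Phe-free, 694 and 172 CPM in MASH, and 174 and 120 CPM in Chow. Nfkbia, an inhibitor that NF-kappaB itself induces, was at 551 and 280 CPM in carriers and others of MASH-Phe-free, 812 and 330 CPM in MASH, and 956 and 570 CPM in Chow. Ifit3, an interferon-induced gene, was at 485 and 217 CPM in MASH-Phe-free, 1303 and 906 CPM in MASH, and 591 and 219 CPM in Chow. Each of these genes, named after their values were seen, was higher in carriers in all 3 libraries. Others were not: Ptgs2, a prostaglandin synthase, was at 101 CPM in carriers and 77.1 CPM in others of MASH-Phe-free, 96.8 and 109 CPM in MASH, and 119 and 44.2 CPM in Chow. Tnf was at 36.9 and 21.2 CPM in MASH-Phe-free, 49.6 and 19.3 CPM in MASH, and 18.1 and 18.99 CPM in Chow. Ccl5, on few UMIs, was at 0 and 5.89 CPM in carriers and others of MASH-Phe-free, 3.87 and 4.30 CPM in MASH, and 2.59 and 10.95 CPM in Chow. Il6 and Il12b were at 0 UMIs in carriers and in others of every library.

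In basophil and mast cell-like and in macrophage-like cells, smaller sources of Acod1, MASH was the lowest library, on few cells. Basophil and mast cell-like cells (66 in MASH-Phe-free, 71 in MASH and 64 in Chow) held 60, 38 and 72 Acod1 UMIs, or 38.3, 21.6 and 56.2 CPM. MASH over Chow was 0.385 (0.253 to 0.578), and MASH-Phe-free over MASH was 1.77 (1.16 to 2.73). Single cells weighed here too, the highest holding 30 of the 60 UMIs in MASH-Phe-free, 15 of the 38 in MASH and 11 of the 72 in Chow. Without the highest cell of each library the levels were 19.3, 13.2 and 48.1 CPM in MASH-Phe-free, MASH and Chow, MASH over Chow was 0.275 (0.162 to 0.450), and the interval of MASH-Phe-free over MASH included 1 (1.46, 0.821 to 2.64). The order of MASH-Phe-free and MASH thus stayed the same with the highest cell left out of each. With that cell left out of MASH-Phe-free alone it turned, at 19.3 CPM against 21.6 CPM in MASH with all its cells. Macrophage-like cells held 72 Acod1 UMIs in MASH-Phe-free, 7 in MASH and 18 in Chow, or 11.2, 1.17 and 3.66 CPM. These rested on single cells, since 52 of the 72 UMIs in MASH-Phe-free lay in 1 cell and all 7 of those in MASH in another. Classical monocyte-like cells held 15, 5 and 8 Acod1 UMIs in MASH-Phe-free, MASH and Chow, or 0.993, 0.481 and 0.909 CPM. Immature neutrophil-like cells held 9, 2 and 10, or 0.463, 0.937 and 0.984 CPM, where MASH-Phe-free was the lowest. Both classes thus lay under 1 CPM.

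Arg2, the mitochondrial arginase, was found in most mature neutrophil-like cells of every library. The class held 1981 of 2131 Arg2 UMIs (93.0%) in MASH-Phe-free, 1892 of 2018 (93.8%) in MASH and 1242 of 1337 (92.9%) in Chow. Its level was 337 CPM in MASH-Phe-free, 512 CPM in MASH and 392 CPM in Chow, so MASH was again the highest library and MASH-Phe-free the lowest. The ratio of MASH over Chow was 1.31 (1.22 to 1.40) and that of MASH-Phe-free over MASH 0.657 (0.617 to 0.701). In the largest cluster alone the levels were 440, 543 and 481 CPM, which brought the ratios to 1.13 and 0.810. With cells of the class set by per-cell marker gates in place of clusters they were 2.82 and 0.333, so the size of the Arg2 difference depended on which cells were counted, and its direction did not. At least 1 Arg2 UMI was found in 70.5% of these cells in MASH-Phe-free, 80.0% in MASH and 70.8% in Chow, and after thinning to 1000 UMIs in 30.3%, 36.5% and 35.8%. B-like cells carried it in 0.287%, 0.437% and 0.353% of cells in MASH-Phe-free, MASH and Chow.

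Arg2 and Acod1 shared cells without tracking each other closely. Both genes were found in 195 mature neutrophil-like cells in MASH-Phe-free, 320 in MASH and 111 in Chow. Acod1 was present in 23.1% of cells with Arg2 and 15.9% of cells without it in MASH-Phe-free, in 48.8% and 39.6% in MASH, and in 23.3% and 12.2% in Chow. Cells with Arg2 were also deeper, with median UMIs of 4146 against 3710 in MASH-Phe-free, and the part of depth in this was not tested. Outside neutrophils Arg2 was sparse. Activated DC-like cells, which carry the Ccr7 programme of dendritic cells, held 14, 14 and 2 Arg2 UMIs in MASH-Phe-free, MASH and Chow, or 28.9, 15.8 and 3.85 CPM. Immature neutrophil-like cells stood at 2.88, 6.09 and 2.76 CPM and classical monocyte-like cells at 3.05, 2.89 and 1.82 CPM in MASH-Phe-free, MASH and Chow.

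Arg1 came from a handful of large barcodes. Macrophage-like cells held 2920 of 3210 Arg1 UMIs in MASH-Phe-free, 284 of 298 in MASH and 1332 of 1348 in Chow, or 453, 47.4 and 271 CPM. MASH was at 0.175 of the Chow level (0.154 to 0.199), and MASH-Phe-free at 9.56 times the MASH level (8.46 to 10.8) and 1.67 times that of Chow (1.57 to 1.79). In this class 2 of the 3 members with at least 20 UMIs, Acod1 and Arg1, were at least 2-fold lower in MASH than in Chow, where 4.1% of 11679 genes were that much lower and 3.62% that much higher. All 3, with Ass1, were at least 2-fold higher in MASH-Phe-free than in MASH, where 3.34% of 11885 genes were that much higher and 2.45% that much lower. Ass1 passed through the Arg1-rich cluster described next: of its 112, 50 and 43 UMIs in macrophage-like cells of MASH-Phe-free, MASH and Chow, 68, 6 and 17 lay there. Acod1 did so too, with 72, 7 and 17 of its 72, 7 and 18 UMIs in that cluster. Without that cluster, an alternative added after seeing the data, Ass1 stood at 7.47 CPM in MASH-Phe-free, 7.55 CPM in MASH and 5.84 CPM in Chow, and MASH-Phe-free over MASH was 0.989 (0.636 to 1.54) in place of 2.08 (1.48 to 2.97). Between MASH-Phe-free and Chow, Acod1 was the 1 member past 2-fold and was higher, as were 3.24% of 11755 genes, with 2.31% lower. Nothing is read from those counts either, since the values that chose the genes include these.

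Almost all of it lay in 1 cluster of 18 cells in MASH-Phe-free, 5 in MASH and 13 in Chow, or 0.116%, 0.0289% and 0.0835% of cells. This cluster held 90.9%, 95.3% and 98.8% of the Arg1 of MASH-Phe-free, MASH and Chow. Its cells were deep, with median UMIs of 25554, 27166 and 29686, against medians of 1164, 1068 and 1039 over all macrophage-like cells. The lowest, median and highest cell held 0, 46.5 and 571 Arg1 UMIs in MASH-Phe-free, 0, 5 and 268 in MASH, and 2, 30 and 379 in Chow. So the ranges overlapped, and the MASH total was in effect 1 cell. Within the cluster the level was 5246 CPM in MASH-Phe-free, 1733 CPM in MASH and 2847 CPM in Chow.

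The MASH value depended on which barcodes counted as doublets. In MASH, 2 further barcodes of the same cluster, with 615 and 109 Arg1 UMIs, were called doublets and left out. With called doublets kept, the cluster held 7 barcodes and 1008 Arg1 UMIs in MASH, and the macrophage-like level became 423 CPM in MASH-Phe-free, 155 CPM in MASH and 253 CPM in Chow. The ratios were then 0.614 for MASH over Chow and 2.72 for MASH-Phe-free over MASH, in the same direction and much nearer to 1. The barcode with 615 Arg1 UMIs also held 29 UMIs of the B cell gene Cd79a, and the one with 109 held none. Over all barcodes as deposited, Arg1 had 3212 UMIs in MASH-Phe-free, 1024 in MASH and 1349 in Chow.

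**Figure D4:**
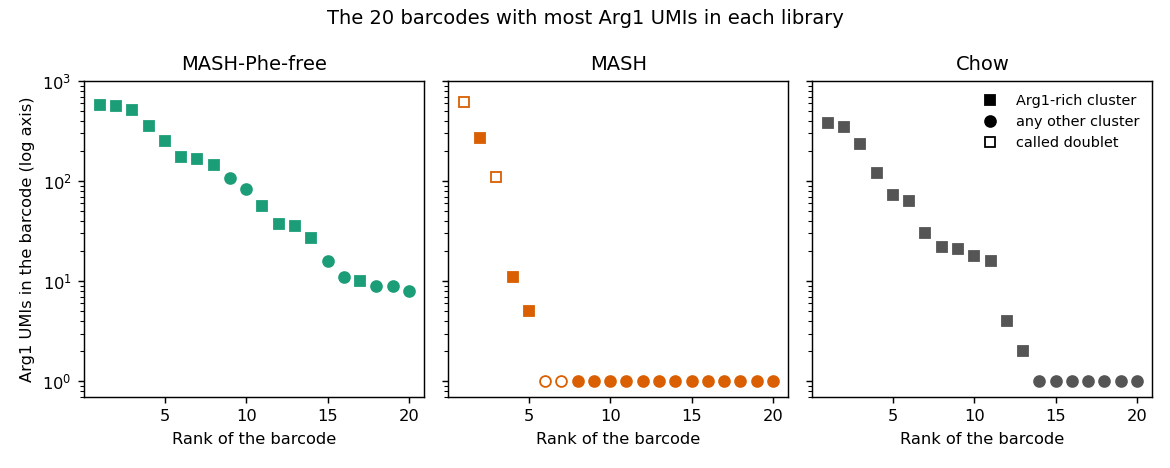
Points give the Arg1 UMIs (log axis) of the 20 barcodes with most of them in each library; squares belong to the Arg1-rich cluster, circles to any other, and open symbols are called doublets. In MASH the barcodes with 615 and 109 UMIs are called doublets, and only 268, 11 and 5 UMIs stand above 1 UMI among the rest.

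The Arg1-rich cluster did not carry the usual profile of red pulp macrophages. It shared the complement genes with other macrophage-like cells (C1qa 3910 CPM in the cluster and 3422 CPM in the others). Vcam1 stood at 7.58 CPM against 4746 CPM, Spic, the factor that sets the red pulp macrophage fate, at 10.9 against 1318 CPM, and Cd163, the haemoglobin scavenger receptor, at 8.42 against 533 CPM. Of the classical monocyte markers, Fn1 (3847 against 10.5 CPM) and Ccr2 (184 against 8.84 CPM) were higher in the cluster. So were F13a1 (117 against 10.2 CPM), Hp (86.7 against 9.15 CPM) and Ly6c2 (42.9 against 18.2 CPM). Vcan (50.5 against 34.9 CPM) and Plac8 (58.1 against 49.6 CPM) lay closer, and Ms4a4c was at 10.9 against 11.3 CPM. Ccr2, the receptor of recruited monocytes, was found in 16 of the 36 cells and stood at 0 CPM in MASH. Marco and Siglec1, receptors of marginal zone macrophages, were at 163 against 64.5 CPM and 69.0 against 48.7 CPM, and Timd4, a receptor of resident macrophages, at 161 against 181 CPM. Cd209b and Cd209d, also of the marginal zone, were at 0 UMIs in the cluster, against 2.47 and 1.42 CPM in the others. Arg1 itself, Saa3, Ltc4s, Ctsl, Prg4, Ecm1, Ccl8, Hal, Slc7a2 and Spp1 led the cluster. Its cells did not share all of these: Ctsl was in all 36 and Ecm1 in 35, but Prg4 in 7, Ccl8 in 8, Spp1 in 11 and Saa3 in 17. Saa3 stood at 991 CPM in MASH-Phe-free, 22341 CPM in MASH and 2398 CPM in Chow, and Ccl8 at 19.8, 30.5 and 1353 CPM. Slc7a2, a carrier that brings arginine into the cell, was at 493 CPM in MASH-Phe-free, 1001 CPM in MASH and 229 CPM in Chow. Since clusters are made from expression, these values describe the cluster and test nothing.

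Outside macrophage-like cells Arg1 was seen mainly in MASH-Phe-free. Classical monocyte-like cells held 242 Arg1 UMIs in MASH-Phe-free, 2 in MASH and 1 in Chow, with 108 and 84 of the 242 in 2 cells that had 164 and 602 C1qa UMIs. Innate lymphoid-like cells (22 in MASH-Phe-free, 13 in MASH and 17 in Chow) held 20, 0 and 1 Arg1 UMIs, the 20 in 3 cells. Innate lymphoid cells of the type marked by Gata3 are a known Arg1 source in mice. B-like cells held 5, 9 and 7 Arg1 UMIs, never more than 1 in a cell.

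Nos2 was close to absent. All 3 libraries together held 22 UMIs, 4 in MASH-Phe-free, 12 in MASH and 6 in Chow. Classical monocyte-like and nonclassical monocyte-like cells had none, which for the classical ones allows up to 0.199 CPM in MASH-Phe-free, 0.289 CPM in MASH and 0.341 CPM in Chow by a limit of 3 counts. Macrophage-like cells held 1 UMI, in MASH, and mature neutrophil-like cells 1, in Chow, and by that 1 UMI mature neutrophils led among the classes of at least 50 cells, with a difference of MASH minus Chow of -0.316 CPM. Of the 22 UMIs, 12 were in a pair of small classes: progenitor-like cells held 1, 4 and 2 in MASH-Phe-free, MASH and Chow, and stromal and endothelial-like cells 1, 4 and 0. No class reached 10 UMIs, so no comparison of Nos2 between groups was possible at this depth.

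Ass1 was the widest of the 5 genes. It was detected in 2504 MASH-Phe-free, 2598 MASH and 2622 Chow cells, in all 16 of the classes with at least 50 cells in every library, and at 10 CPM or more in each library in 10 of them. Over whole libraries it stood at 55.8 CPM in MASH-Phe-free, 52.3 CPM in MASH and 55.3 CPM in Chow. The highest class was that of activated DC-like cells, with 78 UMIs in MASH-Phe-free, 152 in MASH and 95 in Chow, or 161, 171 and 183 CPM. There the ratio was 0.935 for MASH over Chow (0.719 to 1.22) and 0.942 for MASH-Phe-free over MASH (0.707 to 1.25), so the libraries did not differ beyond counting error, and a difference within these intervals was not detectable at this depth. No member with at least 20 UMIs passed 2-fold in this class, where 6.73% of 6506 genes were at least 2-fold higher in MASH than in Chow and 3.1% lower, and 2.95% of 6430 genes were higher in MASH-Phe-free than in MASH and 7.05% lower. Next in order came T-like cells at 142 CPM in MASH-Phe-free, 147 CPM in MASH and 156 CPM in Chow, whose intervals overlap those of activated DC-like cells within each library. Mature neutrophil-like cells, which led for Acod1 and Arg2, held 13, 3 and 7 Ass1 UMIs.

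Within T-like cells Ass1 followed the kind of T cell. Clusters with Foxp3, the factor of regulatory T cells, among their 10 leading genes gave 467 CPM in MASH-Phe-free (417 cells), 425 CPM in MASH (432 cells) and 412 CPM in Chow (499 cells), and 77.7%, 80.6% and 77.4% of their cells held an Ass1 UMI. Of these 7 clusters 3 were unnamed by the marker rule. T-like clusters led by Cd4 without Foxp3 gave 190, 192 and 191 CPM in MASH-Phe-free, MASH and Chow, and those led by Cd8a or Cd8b1 gave 48.3, 45.8 and 61.7 CPM. The order Foxp3-led, Cd4-led, Cd8-led thus held in each library, and the counting intervals of the 3 did not overlap. Foxp3-led clusters carried 18.1% of all Ass1 in MASH-Phe-free, 21.9% in MASH and 24.7% in Chow. Grouping clusters by leading gene was done after these values were seen.

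The other high level was in immature myeloid cells. Clusters with Mpo or Prtn3, granule enzymes of early myeloid cells, among the leading genes gave 320 CPM in MASH-Phe-free, 251 CPM in MASH and 266 CPM in Chow. They counted 133 cells in MASH-Phe-free, 19 in MASH and 37 in Chow, and carried 21.3%, 2.54% and 5.82% of all Ass1. The remaining immature neutrophil-like cells held 38, 0 and 33 Ass1 UMIs in MASH-Phe-free, MASH and Chow, or 2.46, 0 and 3.55 CPM. The whole immature neutrophil-like class stood at 65.4, 42.6 and 25 CPM in MASH-Phe-free, MASH and Chow. In MASH 1 cell held 47 of its 91 Ass1 UMIs. Outside Mpo- or Prtn3-led clusters lay 687 of its 769 cells in MASH-Phe-free, 72 of 78 in MASH and 419 of 436 in Chow. The part of this make-up in the class level was not tested. Classical monocyte-like cells outside these clusters gave 76.0 CPM in MASH-Phe-free, 69.4 CPM in MASH and 48.6 CPM in Chow, so that MASH over Chow was 1.43 (1.26 to 1.62) and MASH-Phe-free over MASH 1.09 (0.993 to 1.21).

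Erythroid-like and B-like cells showed the same kind of split. An erythroid-like cluster led by Car1, a carbonic anhydrase of early red cells, gave 76.3 CPM of Ass1 in MASH-Phe-free, 65.8 CPM in MASH and 58.3 CPM in Chow, against 4.26, 3.93 and 1.59 CPM in the other erythroid-like clusters. Most cells of the Car1-led cluster held no Ass1 UMI: 17.5% had any in MASH-Phe-free, 6.32% in MASH and 14.9% in Chow. The highest cell held 71 of 563, 30 of 158 and 31 of 92 UMIs in the same order. A B-like cluster led by Sox5 gave 52.6 CPM in MASH-Phe-free (302 cells), 88.2 CPM in MASH (369 cells) and 38.7 CPM in Chow (352 cells), against 7.27, 4.93 and 4.70 CPM in other B-like cells. In that Sox5-led cluster the ratio was 2.28 for MASH over Chow (1.89 to 2.75) and 0.597 for MASH-Phe-free over MASH (0.496 to 0.715). The 2 highest cells mattered: without them the levels were 46.7, 66.2 and 34.3 CPM and the ratios 1.93 and 0.706, the highest MASH cell alone holding 79 UMIs. Without the same cells the whole B-like class stood at 11.1 CPM in MASH-Phe-free, 11.2 CPM in MASH and 7.24 CPM in Chow.

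**Figure D5:**
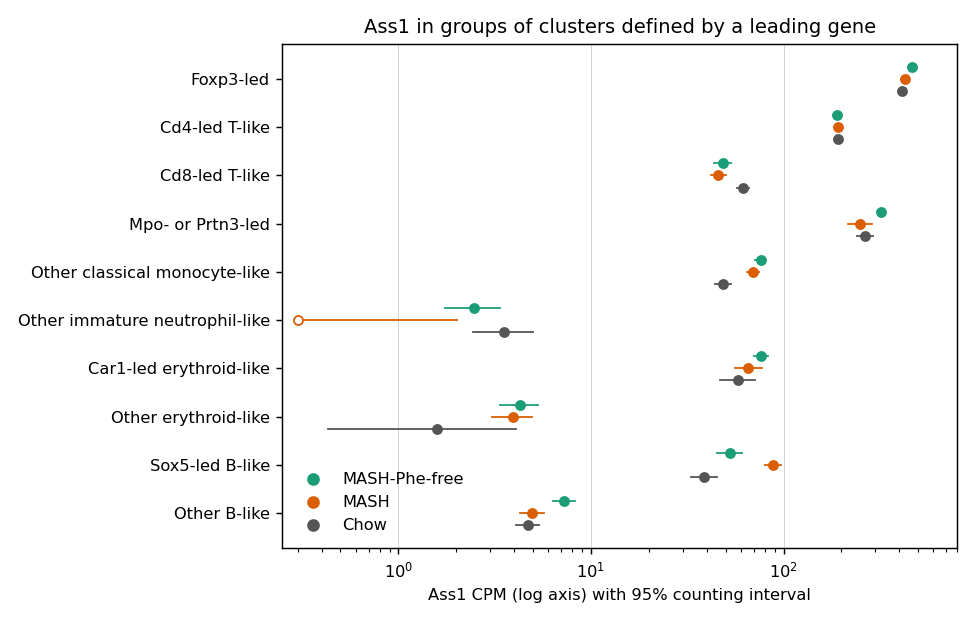
Points give Ass1 CPM (log axis) with 95% counting intervals in groups of clusters defined by a leading gene, for MASH-Phe-free, MASH and Chow. Foxp3-led and Mpo- or Prtn3-led clusters lie highest, above 250 CPM in each library, and the open point marks 0 UMIs and is drawn at 0.3 CPM.

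In mature neutrophil-like cells some genes of lists around these pathways passed 2-fold. Over all 8365 genes measured, 2.68% were at least 2-fold higher in MASH than in Chow and 6.81% lower. The lists are short and were chosen with earlier results known, so nothing is read from their counts. Of 7 genes of arginine, citrulline and nitric oxide metabolism with enough UMIs, none passed 2-fold between MASH and Chow. Of 18 genes of the tricarboxylic acid cycle and the itaconate response, none did so either, and medians of log2 ratios were -0.13 for each list, beside -0.14 over all genes. Of 9 ornithine, polyamine and proline genes 1 was higher, the spermine oxidase Smox, with 333 CPM in MASH and 132 CPM in Chow (2.53-fold), and the list's median was -0.10. Of 10 classical activation genes 2 were higher in MASH, Cxcl10 (32.2 against 5.37 CPM, 6.002-fold) and Cxcl2 (384 against 126 CPM, 3.05-fold), and 1 was lower, Ccl5 (4.60 against 9.79 CPM, 0.470-fold), around a median of 0.48. Of 5 alternative activation genes Mrc1 was higher (13.3 against 6.32 CPM) and Chil3, a chitinase-like protein also made by immature neutrophils, lower (21.9 against 129 CPM), around a median of 0.05.

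Between MASH-Phe-free and MASH, Cxcl10, Cxcl2 and Smox were lower in mature neutrophil-like cells and 5 genes of the lists higher. Over all 9113 genes measured, 3.43% were at least 2-fold lower and 8.55% higher. Cxcl10 was at 1.19 CPM in MASH-Phe-free and 32.2 CPM in MASH (0.0369-fold), Cxcl2 at 112 and 384 CPM (0.292-fold), and no other of the 10 classical activation genes passed 2-fold (median -0.55). Smox was at 150 CPM in MASH-Phe-free and 333 CPM in MASH, the 1 gene lower of 11 in its list (median -0.05). Prmt1, an arginine methyltransferase, was the 1 gene higher of 8 in the arginine list, with 8.33 against 3.52 CPM (median 0.21). Idh2 (18 UMIs against 3) and Suclg1 (17.9 against 8.40 CPM), both cycle enzymes, were higher of 20 in the itaconate-linked list (median 0.31). Chil3 (49.5 against 21.9 CPM) and Cd163 (18 UMIs against 5) were higher of 7 alternative activation genes (median 0.22), and the median over all genes was 0.09. MASH is the shared library of these comparisons, so a value high in MASH alone appears in both.

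In macrophage-like cells some genes of the lists passed 2-fold. Over all 11679 genes measured, 3.62% were at least 2-fold higher in MASH than in Chow and 4.1% lower. For MASH-Phe-free over MASH the shares were 3.34% higher and 2.45% lower of 11885 genes. Nothing is read from the counts of these short lists. No gene of the arginine (14 measured), ornithine (13), itaconate-linked (23) or classical activation (12) lists passed 2-fold between MASH and Chow, and medians lay between 0.03 and 0.13, beside -0.04 over all genes. Of 9 alternative activation genes Chil3 was higher in MASH (63.9 against 23.2 CPM) and Klf4 and Clec10a lower (4.17 against 24.8 CPM and 1.67 against 7.11 CPM), with a median of -0.18. Chil3 in MASH rested on 1 cell of the Arg1-rich cluster with 376 of its 383 UMIs, and 56.0% of Klf4 in MASH and 86.1% in Chow came from that cluster. Between MASH-Phe-free and MASH, 4 of 11 alternative activation genes were higher and Chil3 was lower (19.7 against 63.9 CPM), around a median of 0.13. Retnla, a secreted product of alternative activation, held 174 UMIs in MASH-Phe-free and 0 in MASH, at least 53.9-fold higher by a limit of 3 counts in MASH, and 165 of the 174 lay in 1 cell. Klf4 (26.995 against 4.17 CPM) and Clec10a (5.90 against 1.67 CPM) again lay mostly in the Arg1-rich cluster in MASH-Phe-free, with 85.1% and 65.8% of their UMIs. Cd163 did not, at 674 CPM in MASH-Phe-free and 319 CPM in MASH with 0.0921% of its MASH-Phe-free UMIs in that cluster.

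Of the other lists between MASH-Phe-free and MASH in macrophage-like cells, Nos1, the neuronal nitric oxide synthase, was the 1 lower of 14 arginine genes (8.998 against 25.2 CPM), with no UMI from the Arg1-rich cluster. Cd40 was higher (12.9 against 4.67 CPM) and Cxcl2 and Ccl5 lower (1.71 against 9.01 CPM and 7.76 against 19.2 CPM) of 12 classical activation genes. Without the Arg1-rich cluster Cd40 stood at 5.26 CPM in MASH-Phe-free and 4.29 CPM in MASH. That cluster held 90.7% of Cxcl2 in MASH, where 43 of 54 UMIs lay in 1 cell. Of Ccl5 it held 1 of 50 UMIs in MASH-Phe-free and 1 of 115 in MASH. None of 13 ornithine genes or 23 itaconate-linked genes passed 2-fold, with medians of -0.16 and 0.04, beside 0.02 over all genes. The arginine and classical activation medians were 0.03 and 0.08.

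In activated DC-like cells, where Ass1 was flat, Cxcl10 also peaked in MASH. It was at 4.13 CPM in MASH-Phe-free, 70.9 CPM in MASH and 1.92 CPM in Chow (2, 63 and 1 UMIs). The class's summed erythroid markers were at 149 CPM in MASH-Phe-free, 2693 CPM in MASH and 98.2 CPM in Chow, its mature neutrophil markers at 202, 54.0 and 204 CPM, and the part of other cells' RNA in these values was not tested. Tnf ran the other way at 88.8, 40.5 and 212 CPM. Of the genes of ornithine metabolism between MASH and Chow, Odc1, which makes putrescine from ornithine, was higher (38.3 against 17.3 CPM) and Amd1 lower (7.88 against 25.02 CPM) of 9, and of 9 arginine genes Qdpr was higher (36.0 against 17.3 CPM). Sucla2 (33 UMIs against 6) and Pdcd1lg2 (47 UMIs against 4) were the genes higher of 19 itaconate-linked and 5 alternative activation genes. Between MASH-Phe-free and MASH, Suclg1 (20.7 against 67.5 CPM) and Il1b (33.0 against 72.0 CPM) were lower and Il12b higher (719 against 346 CPM), and none of 8 arginine or 9 ornithine genes passed 2-fold. Over all 6506 genes measured, 6.73% were at least 2-fold higher in MASH than in Chow and 3.1% lower. For MASH-Phe-free over MASH the shares were 2.95% higher and 7.05% lower of 6430 genes.

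Genes with the most similar pattern were sought over 48 profiles (16 classes in 3 libraries) by Pearson's r of log2(CPM + 10) among 10320 genes. Profiles of 1 library share its depth and preparation, and the values are descriptions. Nearest to Acod1 was H2-Q10, a nonclassical class I histocompatibility gene, with r = 0.95, followed by Gm17619, 4933432I03Rik and Gm57053 (r down to 0.89), all highest in mature neutrophil-like cells of MASH. Nearest to Arg2 was Slc7a11, the cystine-glutamate exchanger, with r = 0.97, then Sycp2, Gm57183, Gm39459 and Gm47719. Nearest to Arg1 were Pld5 (r = 0.97), Cbr2, Gm47448, Agmo and Ptprm. The best matches of Ass1, St8sia1 (r = 0.77), Gpr132, Psme2, S100a4 and Nrg2, were weaker, and those of Nos2, led by Chrm3 with r = 0.55, rest on its few UMIs. Among the members, Acod1 and Arg2 had r = 0.81, and every other pair lay between -0.41 and 0.40.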

How the data were processed

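The files hold raw UMI counts per gene and barcode, 1 sparse matrix per library, as deposited by the authors; per the file headers they were written by Cell Ranger 9.0.1. The submitters' processing notes name GRCm39 (mm39) and Seurat 5.3.0, with no role given. Members and gene lists were chosen with earlier results of these data known. Barcodes with at least 300 genes, 500 UMIs and at most 10% mitochondrial UMIs were kept, and doublets called by Scrublet in each library (2.05% in MASH-Phe-free, 1.98% in MASH, 2.56% in Chow) were removed. Cells of all libraries were clustered together by the Leiden method (scanpy 1.11.5, leidenalg 0.10.2; 2000 variable genes without the 5 members, 30 components, 15 neighbours, resolution 1.0). Of the 126 clusters 96 were named from marker lists: a name needed a mean log2 fold of at least 1.5 over its 5 leading markers and 3 markers raised at least 2-fold, and 30 clusters stayed unnamed. Counts were summed by class and library and scaled to CPM. Ratios have exact conditional Poisson intervals (scipy 1.17.1), and PCR duplicates are collapsed by UMIs. Genes were called at 2-fold with at least 20 UMIs in the 2 libraries summed, and list medians add 0.5 UMI to each count. Members were named in classes with at least 20 UMIs over the 3 libraries, list genes at most 3 each way, and 5 similar genes per member among genes reaching 30 CPM in 1 profile; 1 of them is not reported here. Ratios were recomputed under other scalings, cell filters, doublet handling, clusterings, per-cell marker gates, per-cell means, removal of the highest cells and subtraction of free RNA. Not each of these gave a value for each member. The scripts were tested on simulated data. Each group is 1 library, so these intervals hold no spread between animals.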

Additional observations from a re-analysis of the deposited data

Results flagged for a closer look

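Several ratios of the same gene pointed in opposite directions in different cell classes, each with a counting interval clear of 1. The differences between classes were not tested, since each group is 1 library.

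For Acod1 the ratio of MASH over Chow was 5.19 in mature neutrophil-like cells, where MASH was higher, and 0.319 in macrophage-like and 0.385 in basophil and mast cell-like cells, where it was lower. MASH-Phe-free over MASH ran the other way, with 0.234 in mature neutrophil-like, 9.56 in macrophage-like and 1.77 in basophil and mast cell-like cells. The macrophage-like values rest on 72 UMIs in MASH-Phe-free, 7 in MASH and 18 in Chow, 52 of the 72 in 1 cell. Of these, 72, 7 and 17 lay in the Arg1-rich cluster of 18, 5 and 13 cells. Within that cluster Acod1 stood at 129 CPM in MASH-Phe-free, 42.7 CPM in MASH and 36.3 CPM in Chow, so MASH was not below Chow there. In basophil and mast cell-like cells 1 MASH-Phe-free cell held 30 of 60 UMIs, and without the highest cell of each library the ratios were 0.275 for MASH over Chow and 1.46 for MASH-Phe-free over MASH, with an interval that included 1 (0.821 to 2.64).

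For Ass1 the ratio of MASH over Chow was above 1 in B-like (1.78), cDC2-like (1.34), classical monocyte-like (1.11), nonclassical monocyte-like (1.87) and immature neutrophil-like cells (1.71), and below 1 in T-like (0.948) and erythroid-like cells (0.477). On fewer Ass1 UMIs, intervals also lay above 1 in marginal zone macrophage-like (5.68, 15 UMIs against 2) and plasmacytoid dendritic-like cells (2.56, 32 against 13). The same held in progenitor-like (2.27, 34 against 20) and innate lymphoid-like cells (6 against 0). MASH-Phe-free over MASH was above 1 in classical monocyte-like (1.41), macrophage-like (2.08), immature neutrophil-like (1.53) and erythroid-like cells (2.23), and below 1 in B-like cells (0.863). The Car1-led cluster, where Ass1 was higher than in the other erythroid-like clusters together, counted 401 of 716 erythroid-like cells in MASH-Phe-free, 269 of 1023 in MASH and 67 of 114 in Chow. Its own ratios were 1.13 for MASH over Chow and 1.16 for MASH-Phe-free over MASH. The part of its share in the class values was not tested. Without the 2 highest cells of each library, B-like cells had ratios of 1.54 and 0.996. Without the Arg1-rich cluster, macrophage-like cells had 0.989 for MASH-Phe-free over MASH. Mpo- or Prtn3-led clusters had 0.942 for MASH over Chow (0.791 to 1.12) and 1.28 for MASH-Phe-free over MASH (1.10 to 1.49). The other immature neutrophil-like cells stood at 2.46 CPM in MASH-Phe-free, 0 in MASH and 3.55 CPM in Chow. In MASH these were 72 of the 78 cells of the class, so its Ass1 lay in the few that remain. The highest cell held 47 of the class's 91 Ass1 UMIs in MASH, 38 of 254 in Chow and 56 of 1271 in MASH-Phe-free. Classical monocyte-like cells outside those clusters had ratios of 1.43 (1.26 to 1.62) and 1.09 (0.993 to 1.21).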

How the results depend on the processing

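Of the 80 alternative values of the members' ratios (for Nos2, differences) in their leading classes, 61 stayed near the reported value and 19 moved. No ratio whose interval lay clear of 1 crossed it there. Some of the 61 could not move. The 5 Nos2 alternatives for MASH over Chow compared 0 with 1 UMI, and the 5 for MASH-Phe-free over MASH 0 with 0. Removing the 10 highest Ass1 cells of each library took no UMI from activated DC-like cells. Ass1 in activated DC-like cells, whose interval includes 1, crossed it at 1.14 under marker gates for MASH-Phe-free over MASH (0.942 as reported). Outside the leading classes, 2 alternatives were added after seeing the data: without the Arg1-rich cluster, Ass1 in macrophage-like cells crossed 1, at 0.989 for MASH-Phe-free over MASH (2.08 as reported), and without the highest cell of each library Acod1 in basophil and mast cell-like cells gave 0.275 and 1.46. Cell types set by per-cell marker gates in place of clusters gave 11.7 (MASH over Chow) and 0.117 (MASH-Phe-free over MASH) for Acod1, 2.82 and 0.333 for Arg2, and 0.269 and 6.83 for Arg1. The mean of per-cell CPM gave 0.277 for Acod1 in MASH-Phe-free over MASH, 1.18 and 0.755 for Arg2, and 0.107 and 17.6 for Arg1. With called doublets kept, Arg1 gave 0.614 and 2.72. The largest mature neutrophil-like cluster alone, an alternative added after seeing the data, gave 4.47 and 0.294 for Acod1 and 1.13 and 0.810 for Arg2. Median-of-ratios scaling gave 1.44 for Arg2 in MASH over Chow, and clustering each library on its own 0.616 for Arg2 in MASH-Phe-free over MASH. The cause of these moves was not tested. Ass1 in activated DC-like cells stayed between 0.847 and 0.998 for MASH over Chow and between 0.891 and 1.14 for MASH-Phe-free over MASH, and the Nos2 difference between -0.319 and -0.110 CPM. Without the 10 highest cells, or without the Arg1-rich cluster, no Arg1 UMI remained in MASH macrophage-like cells and no ratio could be given. There is also no Arg1 value for clustering at the lower resolution or for each library clustered on its own. How the Arg1 ratios depend on those clusterings is therefore not known.

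Counts of genes past 2-fold depended on the minimum of UMIs. In mature neutrophil-like cells, 224 genes were higher in MASH than in Chow, against 2666 with no minimum and 85 with at least 100 UMIs; for lower genes these were 570, 3199 and 119. For MASH-Phe-free over MASH they were 779, 3653 and 214 higher, and 313, 2353 and 121 lower. In macrophage-like cells they were 423, 2858 and 106 higher and 479, 2661 and 170 lower for MASH over Chow, and 397, 2621 and 128 higher and 291, 2667 and 79 lower for MASH-Phe-free over MASH. In activated DC-like cells they were 438, 3461 and 33 higher and 202, 1809 and 7 lower, then 190, 1585 and 16 higher and 453, 3517 and 22 lower. No paired analysis was possible because each group is 1 library. Depth limits Nos2 in every class and Arg1 outside the Arg1-rich cluster.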
